A study of Homo sapiens with 24 samples.

Results

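The members described here are 43 genes of the hypoxia-inducible factor (HIF) response and of glucose breakdown, out of 26450 genes in the deposited table. They are defined by a list of gene symbols, drawn up with earlier results of these data known, and all 43 symbols were found. Of these, 23 are listed as known HIF target genes and 20 as genes for enzymes of glycolysis, lactate formation and glycogen metabolism. Their transcripts were measured by RNA sequencing in 24 libraries from 2 established human lines. One, PANC-1, grew out of a pancreatic duct carcinoma. The other, HEK293T, is an embryonic kidney line transformed with viral genes, among them the SV40 large T antigen. The 4 formats, each with 3 libraries of either line, were flat culture (2D), microwells that gather cells into aggregates (AggreWell), and capillary containers rotated about a pair of axes (DRCC) at speeds of 1 rpm and 30 rpm. The groups differ only by line and format as far as the labels go, which name no drug, no altered gene, no oxygen level and no culture time. Each line is a single established line, so line and handling cannot be told apart. The comparisons ask how the members differed between flat culture and each 3D format, between the 3D formats, and between the lines.

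HIF is a transcription factor made of an oxygen-regulated alpha subunit and the stable partner ARNT. In well-oxygenated cells, prolyl hydroxylases encoded by the EGLN genes mark the alpha subunit, and the VHL ubiquitin ligase then removes it. When oxygen is scarce the alpha subunit persists and binds core motifs such as ACGTG in target genes. It then raises transcripts for glycolysis, blood vessel growth, matrix formation and mitochondrial turnover. Glycolysis splits glucose into pyruvate, and lactate dehydrogenase turns pyruvate into lactate. Many of these genes also respond to other factors, such as MYC and stress regulators.

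Levels are FPKM values, meaning fragments scaled by transcript length and library size. A change is the difference of the mean log2(FPKM + 1) of 3 libraries, given ± its standard error, and so understates the change of genes near 0. A gene was called where the limma adjusted p, over all genes tested, was under 0.05. Libraries held 32021638 to 39556154 fragments. Line markers fitted the labels for the most part: 8 of 10 PANC-1 markers were higher in every PANC-1 library than in any HEK293T library, as were 6 of the 9 HEK293T markers found the other way. Summed PANC-1 marker FPKM were 2400 to 3099 in PANC-1 libraries and 206 to 330 in HEK293T libraries, and summed HEK293T marker FPKM were 107 to 124 in HEK293T and 16.3 to 30 in PANC-1. Single genes dominated the sums of PANC-1 markers. S100A6 gave a mean of 1715 of 2691 FPKM in PANC-1 2D, and S100A10 gave 263 of 269 FPKM in HEK293T 2D. ANXA3 and PAX2 went against their list, and SOX11, a HEK293T marker, did not exceed 0.00625 FPKM in any library. S100A10 and GATA3 overlapped between the lines. The 13 mitochondrially encoded genes took 4.1 to 4.68% of fragments in PANC-1 2D but 2.31 to 2.45% at 1 rpm and 1.57 to 1.62% at 30 rpm, and 3.38 to 4.86% in HEK293T. Their part in the results below was not tested. The median change of all genes against 2D was not at 0: it was 0.10, 0.15 and 0.17 in PANC-1 for AggreWell, 1 rpm and 30 rpm, and 0.12, 0.18 and 0.13 in HEK293T. Under median-ratio scaling, which sets each library by its typical gene, those medians became -0.06, -0.04 and -0.03, and -0.07, -0.06 and -0.05. The labels do not state whether the 3 replicates came from separate cultures. The p-values therefore reflect library-to-library spread that may be technical. In bulk samples like these, fewer expressing cells and less RNA per cell cannot be told apart.

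The start-site windows of the members show how often ACGTG, a HIF core motif, lies close to these genes. Windows of 300 bases, 250 before and 50 after a RefSeq start (GRCh38.p14), were on hand for 39 of the 43 members and were searched for ACGTG on both strands. At least 1 match was present for 28 of the 39 members, or 71.8%, against 24.9% of 27305 genes with a window. By window the share was 48.6% of 72 against 21.4% of 35116. The motif was found for 15 of 19 HIF targets and for 13 of 20 glycolysis and glycogen genes. ACGTG overlaps the E-box CACGTG, which other factors bind, and HIF sites often lie outside such a window. Other forms of the HIF motif were not searched for. A match is a description of the letters and not evidence of binding. The 250 bases before the start are printed for 5 members that results below turn on or that show the range of match counts, all on the plus strand. Of the LDHA windows, the one with the most matches is printed, and the other held none. Capitals mark ACGTG on either strand, so that CACGT is a match on the minus strand and CACGTG one on both. LDHA and PGK1 are glycolytic genes that fell in both lines in rotation, ANKRD37 parted the lines at 1 rpm, CA9 was listed at 0 in HEK293T 2D and detected in AggreWell, and PGAM1 is a glycolytic gene without a match there.
LDHA, chr11:18394313-18394562: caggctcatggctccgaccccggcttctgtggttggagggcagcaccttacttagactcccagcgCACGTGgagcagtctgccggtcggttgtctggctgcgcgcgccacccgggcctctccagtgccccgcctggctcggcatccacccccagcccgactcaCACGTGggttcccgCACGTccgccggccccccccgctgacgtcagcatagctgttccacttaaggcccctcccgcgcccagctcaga
PGK1, chrX:78103998-78104247: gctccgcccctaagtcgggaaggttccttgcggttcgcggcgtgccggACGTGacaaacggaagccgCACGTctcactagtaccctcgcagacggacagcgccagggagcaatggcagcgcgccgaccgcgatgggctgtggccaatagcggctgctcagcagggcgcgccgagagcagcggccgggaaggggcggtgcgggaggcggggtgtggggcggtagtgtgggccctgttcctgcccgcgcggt
ANKRD37, chr4:185396591-185396840: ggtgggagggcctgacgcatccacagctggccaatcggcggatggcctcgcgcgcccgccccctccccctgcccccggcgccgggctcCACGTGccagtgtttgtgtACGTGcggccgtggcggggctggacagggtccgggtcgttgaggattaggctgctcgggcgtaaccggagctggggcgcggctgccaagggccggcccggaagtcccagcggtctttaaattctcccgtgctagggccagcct
CA9, chr9:35673678-35673927: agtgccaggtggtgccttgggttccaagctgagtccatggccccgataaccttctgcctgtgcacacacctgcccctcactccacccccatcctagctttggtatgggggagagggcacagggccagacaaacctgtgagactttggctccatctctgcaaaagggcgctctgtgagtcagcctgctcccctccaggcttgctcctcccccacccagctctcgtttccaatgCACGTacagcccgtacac
PGAM1, chr10:97427568-97427817: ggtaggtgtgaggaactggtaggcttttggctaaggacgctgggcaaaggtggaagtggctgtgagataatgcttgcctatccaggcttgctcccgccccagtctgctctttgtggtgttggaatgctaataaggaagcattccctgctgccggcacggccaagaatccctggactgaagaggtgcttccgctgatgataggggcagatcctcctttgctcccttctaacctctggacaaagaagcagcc
The LDHA stretch holds 3 marked places, of which 2 are CACGTG. Those of PGK1 and ANKRD37 hold 2 each, with 1 CACGTG in that of ANKRD37, and that of CA9 holds 1. No window was on hand for HILPDA, VEGFA, BNIP3L and NDRG1.

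In AggreWell the members moved mostly upward, and far more so in HEK293T than in PANC-1. Of 40 members tested in HEK293T, 36 were called higher than in 2D and 2 lower, while 48.6% of all genes were called higher and 26.8% lower. At least 2-fold higher were 23 of the 40, against 5.43% of all genes, and 0 were at least 2-fold lower, against 0.104%. In PANC-1, 27 of 40 were called higher and 6 lower, where 45.9% and 24.1% of all genes were. There 4 members were at least 2-fold higher (1.22% of all genes) and 0 at least 2-fold lower (0.224%). With median-ratio scaling the AggreWell counts became 33 higher and 6 lower in HEK293T and 22 higher and 13 lower in PANC-1. Among all genes that scaling gave 4060 higher and 5565 lower of 12548 in HEK293T, and 3357 and 4954 of 11585 in PANC-1. AggreWell was the format with the highest mean for 36 of 40 members in HEK293T, or 90%, against 22.1% of all genes, and for 23 of 40 in PANC-1, or 57.5%, against 23%.

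Within a line, the 3 comparisons against 2D share the 2D libraries. In rotation the HIF targets and the glycolysis and glycogen genes stood apart in their counts, a difference given here as a description. As HIF also raises glycolysis transcripts, the split follows the listed roles. It does not part genes that HIF raises from genes that it does not. In PANC-1 at 1 rpm, 15 of 40 were called higher and 21 lower than in 2D, where 52.3% and 33.9% of all genes were. The HIF targets stood at 12 higher and 6 lower of 20 with a median change of 0.24, and the glycolysis and glycogen genes at 3 higher and 15 lower of 20 with a median of -0.38. At 30 rpm, 20 were higher and 16 lower (53.6% and 32.2% of all genes). That comprised 16 higher and 2 lower HIF targets (median 0.36) and 4 higher and 14 lower glycolysis and glycogen genes (median -0.34). HEK293T at 1 rpm had 18 higher and 20 lower (53.1% and 31.7% of all genes). Among HIF targets 16 were higher and 4 lower (median 0.53), and among glycolysis and glycogen genes 2 were higher and 16 lower (median -0.71). At 30 rpm HEK293T had 11 higher and 25 lower (49.6% and 35.5% of all genes), with 10 and 7 among HIF targets (median 0.15) and 1 and 18 among glycolysis and glycogen genes (median -0.85). The 10 and 7 of 20 HIF targets there were at about the shares of all genes. For PANC-1 at 1 rpm the 12 and 6 of 20 HIF targets were near those shares too. In AggreWell both sets had medians above that of all genes: 0.45 and 0.14 in PANC-1, and 1.5 and 0.45 in HEK293T. Under median-ratio scaling the rotation counts of members and of all genes shifted downward. At 30 rpm in PANC-1 the balance of the members turned, as did that of all genes. Of 11585 genes tested in PANC-1, 4648 were then higher and 5247 lower at 1 rpm, and 4762 and 5193 at 30 rpm. Of 12548 in HEK293T, 4845 were higher and 5775 lower at 1 rpm, and 4982 and 5667 at 30 rpm. All members then stood at 11 higher and 26 lower at 1 rpm and 13 and 20 at 30 rpm in PANC-1, and at 12 and 24 and 9 and 28 in HEK293T. The HIF targets became 9 higher and 9 lower (median 0.03) at 1 rpm and 11 and 4 (0.17) at 30 rpm in PANC-1. In HEK293T they became 11 and 5 (0.26) at 1 rpm and 8 and 9 (-0.04) at 30 rpm. The glycolysis and glycogen medians in rotation were -0.60 and -0.56 in PANC-1 and -0.98 and -1.06 in HEK293T, and that of PANC-1 AggreWell turned to -0.04.

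Rises of at least 2-fold in rotation came to about the share of all genes or less, while falls of that size in HEK293T were the more frequent ones. At least 2-fold higher were 2 of 40 at 1 rpm and 3 at 30 rpm in PANC-1, against 10.5% and 10.9% of all genes, and at least 2-fold lower were 2 and 1, against 3.72% and 3.26%. In HEK293T, 6 and 4 members were at least 2-fold higher, against 12.2% and 11.6% of all genes, and 6 and 8 at least 2-fold lower, against 2.67% and 3.87%. The 43 members together took 1.77 to 1.82% of fragments in HEK293T 2D, 2.52 to 2.54% in AggreWell, 1.13 to 1.16% at 1 rpm and 0.988 to 0.992% at 30 rpm. In PANC-1 the shares were 1.75 to 1.76%, 1.73 to 1.75%, 1.22 to 1.23% and 1.4 to 1.41%.

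**Figure D1:**
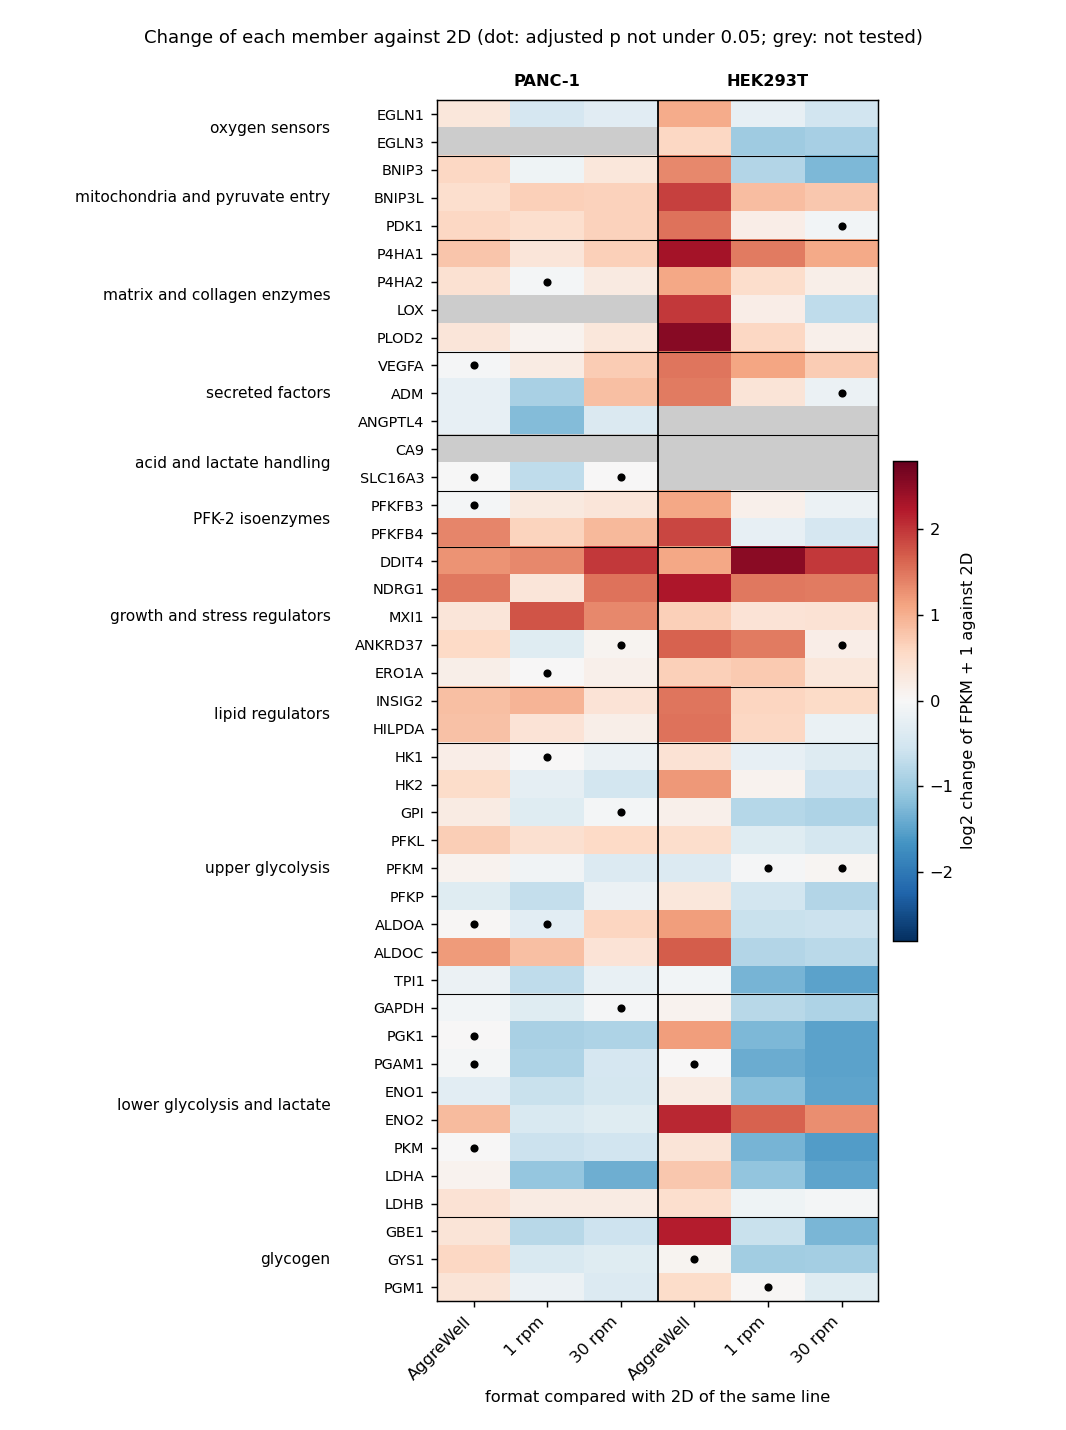
Change of each of the 43 members (rows, grouped by role) against 2D of the same line, for the 3 other formats of each line (columns). The colour is the difference of mean log2(FPKM + 1) over 3 libraries, a dot marks an adjusted p that is not under 0.05, and grey marks members not tested in that line. The AggreWell column of HEK293T is red for most rows, with PLOD2 at 2.54 as its largest value, while the lower glycolysis rows are blue in the rotation columns except ENO2 in HEK293T and LDHB in PANC-1.

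The oxygen sensors EGLN1 and EGLN3, the prolyl hydroxylases that mark HIF alpha and are themselves HIF targets, rose in HEK293T AggreWell and fell in rotation. HEK293T libraries gave EGLN1 at 17.9, 20.9 and 19.4 FPKM in 2D, 39.8, 42.1 and 39.6 in AggreWell, 15.5, 17.5 and 16.5 at 1 rpm and 13, 12.9 and 12.9 at 30 rpm. AggreWell was above all other HEK293T libraries and 30 rpm below all 2D libraries, with changes of 1.03 ± 0.05 and -0.54 ± 0.05, while the 1 rpm change was -0.22 ± 0.05. HEK293T EGLN3 was 12.7, 11.7 and 11.8 FPKM in 2D, 18.4, 18.9 and 19 in AggreWell, 5.72, 5.71 and 5.28 at 1 rpm and 6.06, 5.57 and 6.08 at 30 rpm. AggreWell lay above and rotation below 2D, at 0.59 ± 0.04 for AggreWell and -1.0 ± 0.04 and -0.92 ± 0.04 for 1 and 30 rpm, whose libraries overlapped. PANC-1 EGLN1 was 15.5, 18.4 and 17.1 FPKM in 2D, 21.2, 21.6 and 21.7 in AggreWell, 12.3, 12.1 and 11.8 at 1 rpm and 13.1, 13.8 and 13.3 at 30 rpm, again with AggreWell above and both speeds below 2D. Its changes were 0.32 ± 0.05, -0.46 ± 0.05 and -0.32 ± 0.05. EGLN3 was too low in PANC-1 to be tested, with 0.103 to 0.243 FPKM in 2D, 0.609 to 0.85 in AggreWell and at most 0.151 in rotation.

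The mitophagy receptors BNIP3 and BNIP3L, which tag mitochondria for removal, parted in rotation. HEK293T BNIP3 was 72, 70.7 and 70.9 FPKM in 2D, 184, 179 and 184 in AggreWell, 38.3, 40.2 and 41.7 at 1 rpm and 29.9, 27.3 and 30.6 at 30 rpm. Its change against 2D was 1.35 ± 0.04 in AggreWell but -0.81 ± 0.04 and -1.26 ± 0.04 at 1 and 30 rpm, with no overlap between any 2 formats. HEK293T BNIP3L was 9.89, 11.1 and 9.95 FPKM in 2D, 41.2, 43.9 and 40.5 in AggreWell, 19.7, 20.2 and 18.8 at 1 rpm and 18.5, 18.3 and 17.8 at 30 rpm. Here every 3D format lay above 2D, by 1.92 ± 0.05, 0.86 ± 0.05 and 0.76 ± 0.05. PANC-1 BNIP3 was 37.1, 33.9 and 35.6 FPKM in 2D, 53.3, 53.7 and 55.3 in AggreWell, 33.2, 32.1 and 33.3 at 1 rpm and 43.9, 45.1 and 45.1 at 30 rpm, so 1 rpm was the only format below 2D (-0.11 ± 0.03) and 30 rpm was above it by 0.32 ± 0.03, a call lost with median-ratio scaling (0.09). PANC-1 BNIP3L was 16.4, 18 and 17.3 FPKM in 2D, 25, 24.4 and 24 in AggreWell, 27.1, 28.2 and 28.3 at 1 rpm and 27.8, 27.6 and 27.3 at 30 rpm, higher in every 3D format by 0.48 ± 0.03, 0.66 ± 0.03 and 0.65 ± 0.03. PDK1, a kinase that switches pyruvate dehydrogenase off, rose in HEK293T AggreWell from a mean of 2.72 to 9.77 FPKM (1.53 ± 0.05). At 1 rpm its change was 0.19 ± 0.05, turning to -0.04 with median-ratio scaling, and at 30 rpm -0.08 ± 0.05, not called. In PANC-1 it rose in all 3 formats, by 0.58 ± 0.06, 0.48 ± 0.06 and 0.64 ± 0.06.

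The collagen-modifying enzymes held the 2 largest rises of HEK293T in AggreWell, those of PLOD2 and P4HA1. PLOD2, a lysyl hydroxylase of collagen, was 15.5, 18.5 and 15.5 FPKM in 2D, 101, 104 and 97 in AggreWell, 24.8, 26 and 24.5 at 1 rpm and 18.2, 18.9 and 17.9 at 30 rpm in HEK293T. AggreWell lay above all other HEK293T libraries, at 2.54 ± 0.06 (limma adjusted p = 9.8e-13). The 1 rpm libraries were above 2D by 0.58 ± 0.06, and those at 30 rpm overlapped with 2D (0.15 ± 0.06, or -0.05 with median-ratio scaling). In PANC-1, where PLOD2 was 48.7, 49.2 and 49.7 FPKM in 2D, 62.4, 63.1 and 61.6 in AggreWell, 53.2, 51.7 and 52.8 at 1 rpm and 61.4, 62.7 and 60.5 at 30 rpm, the changes were 0.34 ± 0.02, 0.09 ± 0.02 (-0.14 with median-ratio scaling) and 0.32 ± 0.02. P4HA1, the catalytic subunit of collagen prolyl 4-hydroxylase, rose in every 3D format of both lines. HEK293T values were 14.9, 16.2 and 14.5 FPKM in 2D, 81, 82.5 and 78.4 in AggreWell, 42.6, 43.3 and 43.4 at 1 rpm and 33.1, 34.1 and 31.6 at 30 rpm, without overlap between formats. PANC-1 values were 18.7, 19.3 and 18.4 FPKM in 2D, 33.1, 32.4 and 33.2 in AggreWell, 23.9, 24.2 and 24.1 at 1 rpm and 29.3, 31 and 30.5 at 30 rpm, again without overlap. The changes were 2.34 ± 0.04, 1.45 ± 0.04 and 1.07 ± 0.04 in HEK293T and 0.78 ± 0.03, 0.34 ± 0.03 and 0.66 ± 0.03 in PANC-1. Its isoenzyme P4HA2 was 8.71, 8.77 and 8.37 FPKM in 2D, 18.9, 19.8 and 19.5 in AggreWell, 12.9, 12 and 12.5 at 1 rpm and 9.22, 10.4 and 9.59 at 30 rpm in HEK293T. In PANC-1, P4HA2 was 8.67, 8.83 and 9.06 FPKM in 2D, 12, 12.7 and 11.9 in AggreWell, 8.2, 8.68 and 8.54 at 1 rpm and 10.7, 10.7 and 10.9 at 30 rpm. P4HA2 rose in AggreWell by 1.09 ± 0.04 and 0.42 ± 0.03 in these lines, while its 30 rpm change in HEK293T was 0.16 ± 0.04 (-0.03 with median-ratio scaling) and its 1 rpm change in PANC-1, -0.06 ± 0.03, was not called (called lower with median-ratio scaling). LOX, which crosslinks collagen outside the cell, rose in HEK293T AggreWell from a mean of 3.85 to 18 FPKM (1.97 ± 0.07) and fell at 30 rpm to 1.94 FPKM (-0.72 ± 0.07). At 1 rpm its change was 0.18 ± 0.07, turning to -0.06 with median-ratio scaling. LOX did not exceed 0.668 FPKM in any PANC-1 library and was not tested there.

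Secreted factors behaved differently in the lines. VEGFA, the vascular endothelial growth factor, was 15, 14.4 and 15 FPKM in 2D, 42.8, 43.9 and 43.9 in AggreWell, 32.7, 32.3 and 33.5 at 1 rpm and 25, 23.8 and 25.5 at 30 rpm in HEK293T. All 3D libraries lay above 2D there, by 1.5 ± 0.03, 1.10 ± 0.03 and 0.71 ± 0.03. PANC-1 VEGFA was 12.7, 12 and 11.9 FPKM in 2D, 11.5, 12.5 and 11.5 in AggreWell, 14.1, 14.6 and 14.3 at 1 rpm and 21.1, 20.4 and 20.8 at 30 rpm, where AggreWell overlapped with 2D (-0.04 ± 0.04, called lower with median-ratio scaling) and 30 rpm was the high format, at 0.72 ± 0.04. The 1 rpm change in PANC-1 was 0.22 ± 0.04, which was -0.00 with median-ratio scaling. ADM, the vasodilator peptide adrenomedullin, was 77.7, 72.8 and 76.2 FPKM in 2D, 64, 66.5 and 63.6 in AggreWell, 41.6, 37.5 and 40.3 at 1 rpm and 137, 138 and 136 at 30 rpm in PANC-1. It was lowest at 1 rpm and highest at 30 rpm with no overlap between formats, and its changes against 2D were -0.22 ± 0.04, -0.91 ± 0.04 and 0.85 ± 0.04. In HEK293T, ADM was far lower at 3.34, 2.88 and 2.36 FPKM in 2D, 8.99, 9.06 and 10.6 in AggreWell, 3.62, 4.62 and 3.75 at 1 rpm and 2.08, 2.91 and 2.41 at 30 rpm, with a rise in AggreWell of 1.45 ± 0.11 and overlap of 30 rpm with 2D. Its 1 rpm call there (0.37 ± 0.11) was lost with median-ratio scaling. ANGPTL4, an inhibitor of lipoprotein lipase, fell in all 3D formats of PANC-1. It was 68.1, 62.9 and 62.6 FPKM in 2D, 55.7, 54.7 and 55.6 in AggreWell, 26.4, 28.5 and 27.2 at 1 rpm and 47.2, 49.8 and 48.3 at 30 rpm there, without overlap. The changes were -0.22 ± 0.04, -1.21 ± 0.04 and -0.41 ± 0.04 on the log2 scale, and ANGPTL4 did not exceed 0.0547 FPKM in HEK293T.

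Of the pair that handles acid and lactate, CA9 was nearly silent and SLC16A3 marked the lines apart. CA9, a cell-surface carbonic anhydrase and a common marker of hypoxic tumour cells, was listed at 0 in all 3 HEK293T 2D libraries and all 3 at 30 rpm. It was at 0.849, 0.966 and 0.795 FPKM in HEK293T AggreWell, and in PANC-1 at 0.131, 0.0499 and 0.102 in 2D and 0.423, 1.27 and 1.14 in AggreWell. At 1 rpm it reached at most 0.0182 FPKM in HEK293T and 0.27 in PANC-1, and at 30 rpm it was at 0.508, 0.248 and 0.124 in PANC-1. It did not reach the level required for testing in either line. SLC16A3, the lactate exporter MCT4, was 138, 140 and 145 FPKM in 2D, 136, 144 and 141 in AggreWell, 85.7, 84.8 and 84.3 at 1 rpm and 141, 140 and 143 at 30 rpm in PANC-1. The 1 rpm libraries stood below all others, at -0.72 ± 0.03, and with median-ratio scaling SLC16A3 was called lower in AggreWell (-0.20) and at 30 rpm (-0.24) as well. In HEK293T it stayed between 0.29 and 0.704 FPKM and was not tested.

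The enzymes PFKFB3 and PFKFB4 set the level of fructose 2,6-bisphosphate, which speeds glycolysis at the phosphofructokinase step. PANC-1 PFKFB4 was 1.29, 1.49 and 1.4 FPKM in 2D, 5.09, 5.11 and 5.27 in AggreWell, 2.39, 2.85 and 2.94 at 1 rpm and 3.67, 3.37 and 3.43 at 30 rpm. AggreWell was highest and 2D lowest without overlap, with rises of 1.36 ± 0.06, 0.63 ± 0.06 and 0.91 ± 0.06. HEK293T PFKFB4 was 4.5, 3.79 and 3.54 FPKM in 2D, 16.9, 16.6 and 17.6 in AggreWell, 3.65, 2.98 and 3.13 at 1 rpm and 2.4, 2.78 and 2.52 at 30 rpm. It rose in AggreWell by 1.87 ± 0.07 but fell at 30 rpm (-0.47 ± 0.07), and its 1 rpm libraries overlapped with 2D (-0.22 ± 0.07). PFKFB3 in HEK293T was 19.4, 19.5 and 19.1 FPKM in 2D, 42.3, 42.4 and 42.5 in AggreWell, 21.4, 20.8 and 22.4 at 1 rpm and 18.3, 16.3 and 17.1 at 30 rpm, a rise in AggreWell of 1.09 ± 0.04. Its rotation changes there were 0.15 ± 0.04 (-0.14 with median-ratio scaling) and -0.16 ± 0.04. In PANC-1 PFKFB3 was 5.99, 6 and 5.49 FPKM in 2D, 5.6, 5.72 and 5.43 in AggreWell, 6.66, 7.18 and 7.85 at 1 rpm and 7.42, 8.13 and 7.28 at 30 rpm, so that AggreWell overlapped with 2D (-0.05 ± 0.06, called lower with median-ratio scaling), and the rotation rises of 0.27 ± 0.06 and 0.33 ± 0.06 were not called with median-ratio scaling.

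**Figure D2:**
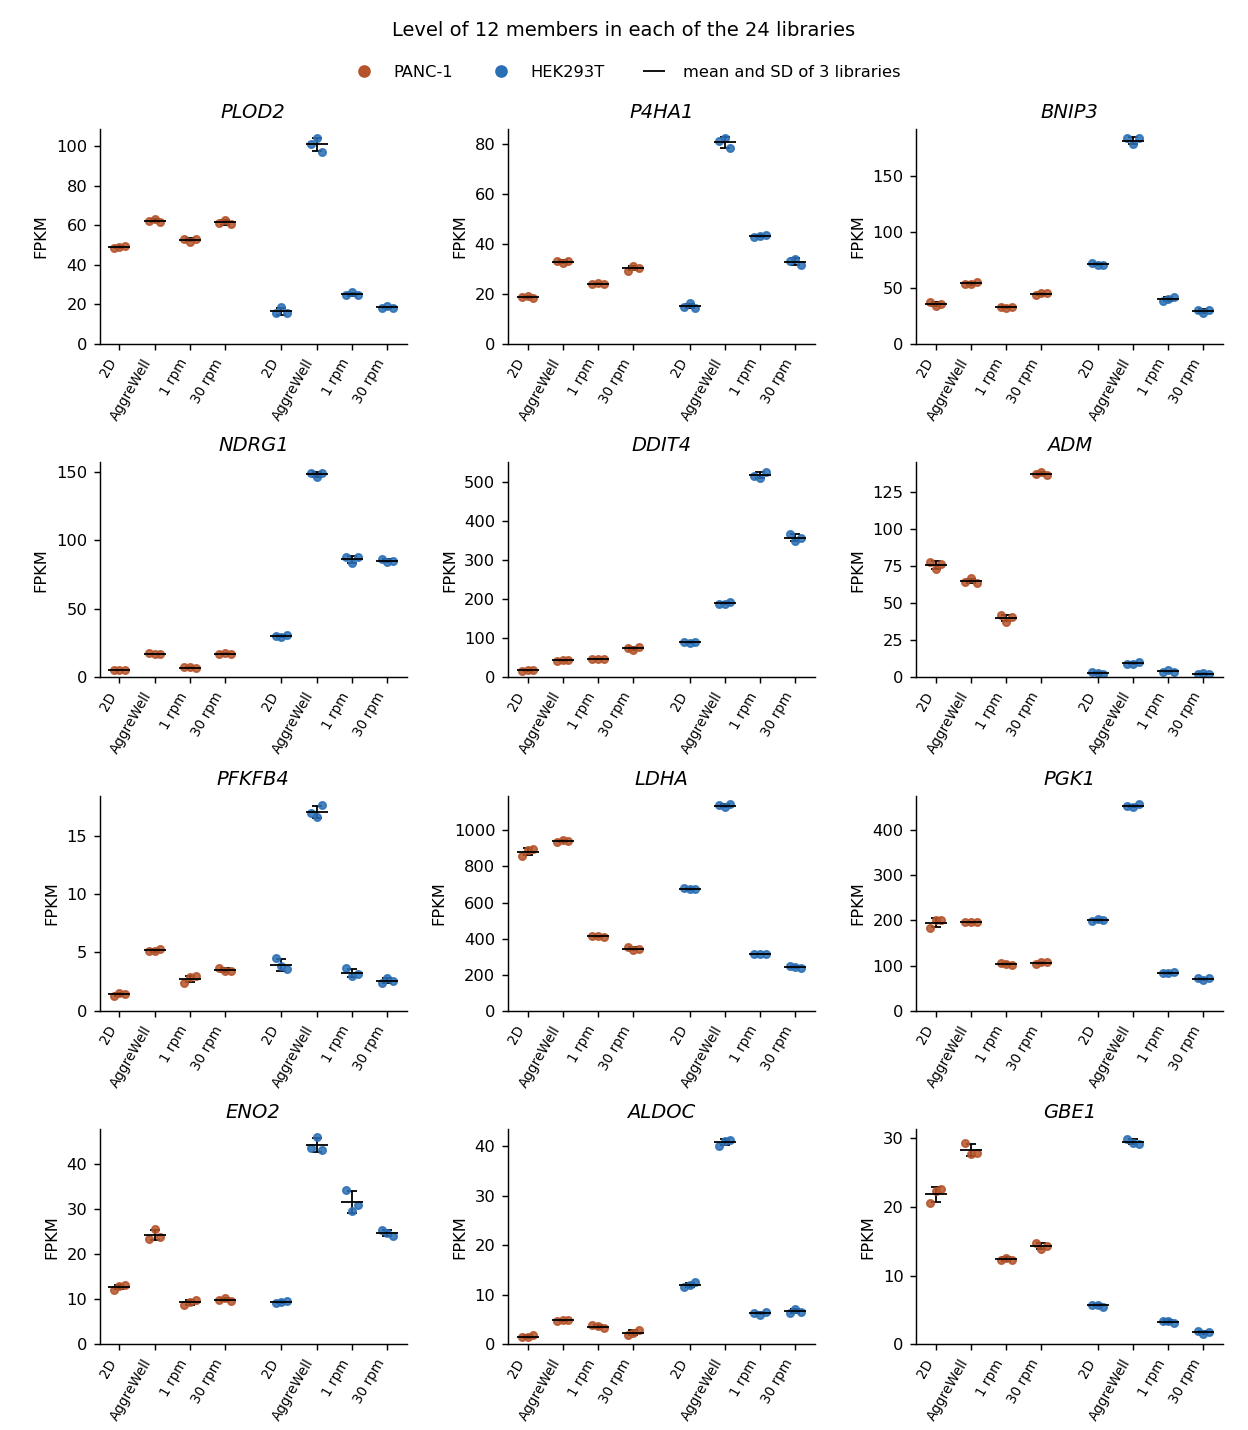
FPKM (vertical axes, each from 0) of 12 members in each of the 24 libraries, with 1 point per library, the mean as a dash and the SD as an error bar. PLOD2, BNIP3, PGK1 and ALDOC peak in HEK293T AggreWell, and GBE1 is high in AggreWell of both lines. DDIT4 peaks at 1 rpm in HEK293T with 511 to 525 FPKM, and ADM peaks at 30 rpm in PANC-1 with 136 to 138 FPKM.

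The growth and stress regulators DDIT4, NDRG1 and MXI1 rose in rotation as well as in AggreWell, in both lines, with the 1 rpm call of MXI1 in HEK293T dependent on the scaling. DDIT4, also called REDD1, restrains the growth kinase mTORC1. HEK293T DDIT4 was 90.2, 86.5 and 90.6 FPKM in 2D, 187, 188 and 192 in AggreWell, 516, 511 and 525 at 1 rpm and 366, 349 and 356 at 30 rpm. Its order of 2D, AggreWell, 30 rpm and 1 rpm, from low to high, had no overlap, and the changes were 1.08 ± 0.02, 2.52 ± 0.02 and 1.99 ± 0.02. PANC-1 DDIT4 was 16.8, 18.9 and 17.9 FPKM in 2D, 42.7, 44.5 and 43.7 in AggreWell, 46.7, 47.4 and 47.1 at 1 rpm and 74.5, 69.5 and 77.5 at 30 rpm, with rises of 1.25 ± 0.04, 1.35 ± 0.04 and 1.99 ± 0.04. NDRG1, a stress-responsive differentiation gene, was 5.63, 5.3 and 5.39 FPKM in 2D, 17.4, 16.7 and 17 in AggreWell, 7.19, 7.16 and 7.02 at 1 rpm and 17.3, 18 and 16.7 at 30 rpm in PANC-1. AggreWell and 30 rpm overlapped there (1.48 ± 0.03 and 1.51 ± 0.03) and 1 rpm was only slightly above 2D (0.33 ± 0.03). HEK293T NDRG1 was 30.2, 29.6 and 30.8 FPKM in 2D, 149, 146 and 149 in AggreWell, 87.4, 83.1 and 87.8 at 1 rpm and 86.2, 83.8 and 84.8 at 30 rpm. In that line the speeds overlapped with each other (1.48 ± 0.03 and 1.46 ± 0.03) below AggreWell (2.26 ± 0.03).

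MXI1, a MYC antagonist of the MAD family, rose most in rotation in PANC-1, at 4.36, 3.96 and 4.28 FPKM in 2D, 5.4, 5.47 and 5.67 in AggreWell, 15.7, 17.6 and 16.1 at 1 rpm and 12.1, 11.8 and 12.9 at 30 rpm. Its changes were 0.33 ± 0.05, 1.75 ± 0.05 and 1.35 ± 0.05. In HEK293T the mean rose from 17.9 to 29.1 FPKM in AggreWell (0.67 ± 0.05) and to 23.6 and 24.1 at 1 and 30 rpm, where the 1 rpm call (0.38 ± 0.05) was lost with median-ratio scaling (0.09). ANKRD37, a small ankyrin-repeat gene, was 1.4, 1.74 and 1.95 FPKM in 2D, 7.04, 6.97 and 8.39 in AggreWell, 7.18, 6.43 and 5.62 at 1 rpm and 2.04, 2.17 and 1.91 at 30 rpm in HEK293T. AggreWell and 1 rpm overlapped well above 2D, at 1.65 ± 0.09 and 1.46 ± 0.09, and 30 rpm (0.18 ± 0.09) was not called. PANC-1 ANKRD37 was 1.25, 1.5 and 1.1 FPKM in 2D, 2.26, 2.14 and 2.66 in AggreWell, 1.03, 0.921 and 0.53 at 1 rpm and 1.32, 1.3 and 1.54 at 30 rpm, higher in AggreWell by 0.55 ± 0.10 and lower at 1 rpm (-0.33 ± 0.10). ERO1A, the oxidase that drives disulfide formation in the endoplasmic reticulum, rose in HEK293T from a mean of 21.7 to 35, 36.8 and 27.4 FPKM in AggreWell, 1 rpm and 30 rpm. In PANC-1 its means lay between 28.2 and 31.8 FPKM, and its AggreWell and 30 rpm calls (0.17 ± 0.03 and 0.14 ± 0.03) turned to -0.02 and -0.10 with median-ratio scaling. Its 1 rpm value there (0.02 ± 0.03, not called) turned to -0.20 and was called lower.

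Both lipid regulators rose in AggreWell. INSIG2, which holds the sterol sensor SCAP in the endoplasmic reticulum, was 2.25, 2.63 and 2.77 FPKM in 2D, 4.88, 5.59 and 5.69 in AggreWell, 5.67, 6.33 and 5.7 at 1 rpm and 4.13, 3.35 and 3.5 at 30 rpm in PANC-1, with rises of 0.85 ± 0.08, 0.96 ± 0.08 and 0.39 ± 0.08. Its AggreWell and 1 rpm libraries overlapped, and both lay above 30 rpm. In HEK293T its mean went from 3.29 to 11.1 FPKM in AggreWell (1.5 ± 0.06), and 1 rpm and 30 rpm were at 0.61 ± 0.06 and 0.54 ± 0.06. HILPDA, which blocks the lipase ATGL on lipid droplets, was 27.1, 27.5 and 28.3 FPKM in 2D, 83.7, 78.7 and 79.3 in AggreWell, 42.9, 41.7 and 41.3 at 1 rpm and 24.6, 23.8 and 24.5 at 30 rpm in HEK293T. It was above 2D in AggreWell and at 1 rpm (1.51 ± 0.03 and 0.59 ± 0.03) and below it at 30 rpm (-0.18 ± 0.03). PANC-1 HILPDA was 6.19, 6.5 and 6.65 FPKM in 2D, 11.8, 12.2 and 12.1 in AggreWell, 8.1, 8.56 and 9.4 at 1 rpm and 7.19, 8.04 and 6.95 at 30 rpm, with changes of 0.81 ± 0.05, 0.38 ± 0.05 and 0.17 ± 0.05, the last turning to -0.04 with median-ratio scaling.

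Upper glycolysis, from hexokinase to triose phosphate isomerase, had smaller median changes in rotation than the steps after it. Of 9 tested genes, 7 rose and 2 fell in HEK293T AggreWell (median change 0.41), 1 rose and 7 fell at 1 rpm (-0.51), and 0 rose and 8 fell at 30 rpm (-0.60). In PANC-1, 6 rose and 2 fell in AggreWell (0.19), 2 rose and 5 fell at 1 rpm (-0.25), and 3 rose and 5 fell at 30 rpm (-0.16). Over all genes in AggreWell, at 1 rpm and at 30 rpm, 48.6, 53.1 and 49.6% were higher and 26.8, 31.7 and 35.5% lower in HEK293T, and 45.9, 52.3 and 53.6% higher and 24.1, 33.9 and 32.2% lower in PANC-1. Of these 9 genes, 6 were higher and 3 lower, 0 and 9, and 0 and 9 in HEK293T after median-ratio scaling, and 3 and 2, 2 and 7, and 2 and 6 in PANC-1. HK2, the inducible hexokinase, was 25.4, 24.8 and 24.2 FPKM in 2D, 59.4, 58 and 58.6 in AggreWell, 26.5, 26.7 and 26.6 at 1 rpm and 16.3, 16.3 and 16.4 at 30 rpm in HEK293T, so AggreWell stood above and 30 rpm below all others (1.21 ± 0.03 and -0.57 ± 0.03). Its 1 rpm change of 0.10 ± 0.03 turned to -0.19 with median-ratio scaling. PANC-1 HK2 was 10.1, 10.7 and 11 FPKM in 2D, 15.6, 16 and 15.3 in AggreWell, 9.2, 8.56 and 8.46 at 1 rpm and 7.04, 7.56 and 6.74 at 30 rpm, with 0.52 ± 0.05, -0.25 ± 0.05 and -0.52 ± 0.05. HK1, the constitutive hexokinase, was 37.7, 37.6 and 37.1 FPKM in 2D, 50.3, 49.6 and 50.5 in AggreWell, 31.5, 30.2 and 33.1 at 1 rpm and 29.3, 28.6 and 28.6 at 30 rpm in HEK293T. In PANC-1, HK1 was 26, 24.7 and 24.7 FPKM in 2D, 29.1, 28.6 and 28.6 in AggreWell, 24.9, 25.3 and 25.6 at 1 rpm and 21.8, 22.9 and 22.5 at 30 rpm. Its changes were smaller, at 0.41 ± 0.03, -0.24 ± 0.03 and -0.37 ± 0.03 in HEK293T and 0.19 ± 0.03, 0.01 ± 0.03 and -0.16 ± 0.03 in PANC-1, where the AggreWell call was lost with median-ratio scaling (0.00) and the 1 rpm value, not called, turned to -0.22 and was called lower. GPI, which turns glucose 6-phosphate into fructose 6-phosphate, was -0.79 ± 0.03 and -0.87 ± 0.03 at 1 and 30 rpm in HEK293T and 0.15 ± 0.03 in AggreWell, or -0.07 with median-ratio scaling. In PANC-1 it was called at 0.22 ± 0.03 in AggreWell, a call lost with median-ratio scaling (0.03), and -0.33 ± 0.03 at 1 rpm.

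Phosphofructokinase commits sugar to glycolysis, and its 3 genes were used unequally by the lines. PFKP, the platelet form, was 167, 161 and 160 FPKM in 2D, 128, 129 and 129 in AggreWell, 104, 100 and 104 at 1 rpm and 144, 146 and 147 at 30 rpm in PANC-1. In HEK293T, PFKP was 42.2, 39.3 and 42.6 FPKM in 2D, 52.4, 51.1 and 52.5 in AggreWell, 29.7, 27.8 and 28.8 at 1 rpm and 21.9, 23.1 and 23.5 at 30 rpm. In PANC-1 it fell in every 3D format (-0.33 ± 0.02, -0.66 ± 0.02 and -0.16 ± 0.02). HEK293T showed a rise in AggreWell (0.32 ± 0.04) and falls in rotation (-0.51 ± 0.04 and -0.83 ± 0.04). PFKL, the liver form, was 58.7, 58.9 and 61.3 FPKM in 2D, 84, 83.3 and 85.4 in AggreWell, 47.3, 45.5 and 46.6 at 1 rpm and 41.7, 42.3 and 41.4 at 30 rpm in HEK293T, a rise in AggreWell (0.49 ± 0.03) and falls in rotation (-0.35 ± 0.03 and -0.50 ± 0.03). PANC-1 PFKL was 10.6, 9.4 and 9.98 FPKM in 2D, 16.6, 16.5 and 16.8 in AggreWell, 13, 14.3 and 14.4 at 1 rpm and 15, 15.2 and 15.2 at 30 rpm and rose in every 3D format (0.68 ± 0.04, 0.44 ± 0.04 and 0.55 ± 0.04). PFKM, the muscle form, was 26.1, 25.8 and 27.6 FPKM in 2D, 19.9, 20.5 and 19.7 in AggreWell, 26.9, 24.5 and 26.2 at 1 rpm and 27.4, 26.8 and 28.7 at 30 rpm in HEK293T. In PANC-1, PFKM was 12.4, 13.4 and 13.8 FPKM in 2D, 14.2, 14.4 and 13.9 in AggreWell, 12, 12.5 and 12.2 at 1 rpm and 9.92, 9.46 and 10.3 at 30 rpm. AggreWell was its lowest HEK293T format (-0.39 ± 0.04), and the value at 30 rpm (0.06 ± 0.04, not called) turned to -0.15 with median-ratio scaling. The PANC-1 change in AggreWell of 0.10 ± 0.04 turned to -0.08 with median-ratio scaling and lost its call without a filter, with a pseudocount of 0.1, with the replicate block and in a fit on those formats alone.

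Aldolase cleaves the 6-carbon sugar. ALDOC, the brain form, was 11.6, 11.9 and 12.5 FPKM in 2D, 40.1, 41.1 and 41.2 in AggreWell, 6.38, 5.98 and 6.53 at 1 rpm and 6.35, 7.15 and 6.47 at 30 rpm in HEK293T. That is a rise in AggreWell (1.69 ± 0.04) and falls in rotation (-0.83 ± 0.04 and -0.76 ± 0.04), with the speeds overlapping. In PANC-1 ALDOC was 1.38, 1.42 and 1.8 FPKM in 2D, 4.7, 4.96 and 4.79 in AggreWell, 3.86, 3.6 and 3.25 at 1 rpm and 1.9, 2.29 and 2.81 at 30 rpm, above 2D in every 3D format by 1.20 ± 0.09, 0.85 ± 0.09 and 0.39 ± 0.09. ALDOA, the main aldolase of most cells, was listed at an unusually low 9.55, 8.12 and 8.85 FPKM in 2D, 20.2, 20.6 and 22.4 in AggreWell, 5.21, 5.4 and 5.58 at 1 rpm and 6.06, 4.98 and 5.48 at 30 rpm in HEK293T. In PANC-1, ALDOA was 9.75, 4.91 and 4.83 FPKM in 2D, 7.3, 6.44 and 5.42 in AggreWell, 4.62, 4.25 and 5.93 at 1 rpm and 9.5, 8.77 and 11.6 at 30 rpm. RefSeq has another gene overlapping ALDOA, and counting may have left out fragments that lie in both, so the ALDOA values and its calls (1.17 ± 0.07 in HEK293T AggreWell, 0.60 ± 0.20 in PANC-1 at 30 rpm) are uncertain. The PANC-1 call was lost with median-ratio scaling (0.39). TPI1, triose phosphate isomerase, was slightly lower in AggreWell (-0.08 ± 0.02 in HEK293T, -0.16 ± 0.02 in PANC-1). It fell at 1 and 30 rpm in HEK293T from a mean of 858 to 347 and 302 FPKM (-1.30 ± 0.02 and -1.5 ± 0.02), and in PANC-1 from 351 to 216 and 304 FPKM (-0.70 ± 0.02 and -0.20 ± 0.02).

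Most genes of lower glycolysis and lactate formation fell in rotation in both lines. Of 8 genes tested in HEK293T, 7 rose and 0 fell in AggreWell (median change 0.42), while 1 rose and 7 fell at 1 rpm (-1.13) and at 30 rpm (-1.48). The PANC-1 counts were 3 up and 2 down in AggreWell (0.02), 1 up and 7 down at 1 rpm (-0.61), and 1 up and 6 down at 30 rpm (-0.48). The gene that rose in rotation was ENO2 in HEK293T and LDHB in PANC-1. With median-ratio scaling the AggreWell counts became 5 higher and 2 lower in HEK293T and 2 higher and 6 lower in PANC-1. In rotation they were 1 and 7 at both speeds in HEK293T, and 0 and 7 at both in PANC-1. Among all genes lower calls in rotation made up 31.7 and 35.5% in HEK293T and 33.9 and 32.2% in PANC-1, and higher calls in AggreWell 48.6 and 45.9%.

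PGK1, which makes the first ATP of the pathway and carries 2 ACGTG matches in the 250 bases printed above, was 198, 203 and 200 FPKM in 2D, 453, 452 and 457 in AggreWell, 83, 82.6 and 85.2 at 1 rpm and 71.8, 67.4 and 72.1 at 30 rpm in HEK293T. Its AggreWell libraries lay above all others (1.18 ± 0.03) and its rotation libraries lay below 2D without overlap (-1.25 ± 0.03 and -1.49 ± 0.03). PANC-1 PGK1 was 183, 201 and 200 FPKM in 2D, 196, 196 and 197 in AggreWell, 105, 104 and 101 at 1 rpm and 104, 108 and 107 at 30 rpm, where AggreWell overlapped with 2D (0.01 ± 0.03, or -0.18 and called lower with median-ratio scaling) and rotation was lower by similar amounts (-0.91 ± 0.03 and -0.87 ± 0.03). PGAM1, phosphoglycerate mutase, overlapped with 2D in AggreWell in both lines. It fell at 1 and 30 rpm in HEK293T from a mean of 400 to 151 and 142 FPKM (-1.40 ± 0.03 and -1.49 ± 0.03), and in PANC-1 from 283 to 155 and 205 FPKM (-0.86 ± 0.04 and -0.46 ± 0.04). With median-ratio scaling PGAM1 was called lower in AggreWell too (-0.23 in HEK293T and -0.25 in PANC-1). PKM, pyruvate kinase, went from 440 FPKM in HEK293T 2D to 566 in AggreWell, 179 at 1 rpm and 147 at 30 rpm (0.36 ± 0.02, -1.30 ± 0.02 and -1.57 ± 0.02). In PANC-1 it went from 692 to 702, 457 and 476 FPKM, with AggreWell not called (0.02 ± 0.02, or -0.17 with median-ratio scaling) and rotation at -0.60 ± 0.02 and -0.54 ± 0.02. GAPDH, often used as a reference gene, was 2208, 2120 and 2198 FPKM in 2D, 2347, 2300 and 2364 in AggreWell, 1274, 1231 and 1283 at 1 rpm and 1175, 1206 and 1191 at 30 rpm in HEK293T. In PANC-1, GAPDH was 2026, 1969 and 1963 FPKM in 2D, 1872, 1886 and 1872 in AggreWell, 1589, 1562 and 1555 at 1 rpm and 1960, 1938 and 1930 at 30 rpm. It fell at both speeds in HEK293T (-0.78 ± 0.02 and -0.87 ± 0.02) and at 1 rpm in PANC-1 (-0.34 ± 0.02). Its HEK293T AggreWell change of 0.10 ± 0.02 turned to -0.13 with median-ratio scaling. In PANC-1 AggreWell GAPDH was called lower under both scalings (-0.08, and -0.27 with median-ratio scaling). At 30 rpm in PANC-1 its change of -0.03 was not called, but with median-ratio scaling it was -0.28 and called lower.

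The enolases diverged. ENO1, the ubiquitous form, was 1190, 1160 and 1183 FPKM in 2D, 1374, 1386 and 1377 in AggreWell, 531, 517 and 532 at 1 rpm and 420, 421 and 421 at 30 rpm in HEK293T. In PANC-1, ENO1 was 1140, 1167 and 1166 FPKM in 2D, 938, 948 and 945 in AggreWell, 748, 748 and 757 at 1 rpm and 819, 826 and 807 at 30 rpm. Its changes were 0.23 ± 0.02 (-0.00 with median-ratio scaling), -1.16 ± 0.02 and -1.48 ± 0.02 in HEK293T and -0.29 ± 0.02, -0.62 ± 0.02 and -0.50 ± 0.02 in PANC-1. ENO2, the neuronal form, was 9.08, 9.44 and 9.48 FPKM in 2D, 43.4, 45.8 and 43.1 in AggreWell, 34.1, 29.5 and 30.8 at 1 rpm and 25.4, 24.6 and 23.9 at 30 rpm in HEK293T. Every 3D library lay above 2D without overlap between formats, at 2.12 ± 0.05, 1.65 ± 0.05 and 1.31 ± 0.05. PANC-1 ENO2 was 12.1, 12.8 and 13.1 FPKM in 2D, 23.3, 25.5 and 23.8 in AggreWell, 8.61, 9.3 and 9.87 at 1 rpm and 9.82, 10.2 and 9.55 at 30 rpm, up in AggreWell (0.88 ± 0.05) and down in rotation (-0.42 ± 0.05 and -0.34 ± 0.05).

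LDHA, the lactate dehydrogenase subunit that favours lactate formation, had the largest fall against 2D of any member tested in PANC-1. It was 858, 891 and 896 FPKM in 2D, 933, 944 and 943 in AggreWell, 417, 412 and 410 at 1 rpm and 351, 335 and 345 at 30 rpm there, at -1.09 ± 0.02 and -1.36 ± 0.02 in rotation (limma adjusted p = 7.5e-14 and 9.2e-15), while its AggreWell change of 0.09 ± 0.02 turned to -0.10 with median-ratio scaling. HEK293T LDHA was 681, 673 and 675 FPKM in 2D, 1141, 1127 and 1145 in AggreWell, 312, 314 and 315 at 1 rpm and 247, 243 and 236 at 30 rpm, with 0.75 ± 0.02, -1.11 ± 0.02 and -1.48 ± 0.02, and none of the formats overlapped in either line. LDHB, the subunit that favours pyruvate formation, changed less than LDHA in rotation, at 266, 286 and 290 FPKM in 2D, 369, 375 and 371 in AggreWell, 326, 328 and 329 at 1 rpm and 324, 328 and 332 at 30 rpm in PANC-1. In HEK293T, LDHB was 401, 388 and 392 FPKM in 2D, 556, 541 and 551 in AggreWell, 367, 355 and 363 at 1 rpm and 384, 376 and 382 at 30 rpm. Its changes in AggreWell, at 1 rpm and at 30 rpm were 0.40 ± 0.03, 0.22 ± 0.03 and 0.23 ± 0.03 in PANC-1, the rotation calls being lost with median-ratio scaling (-0.01 and -0.02), and 0.48 ± 0.02, -0.12 ± 0.02 and -0.05 ± 0.02 in HEK293T. GAPDH, PGK1, PGAM1, ENO1, TPI1, LDHA and LDHB have processed pseudogenes, so counting may have lost part of their fragments.

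**Figure D3:**
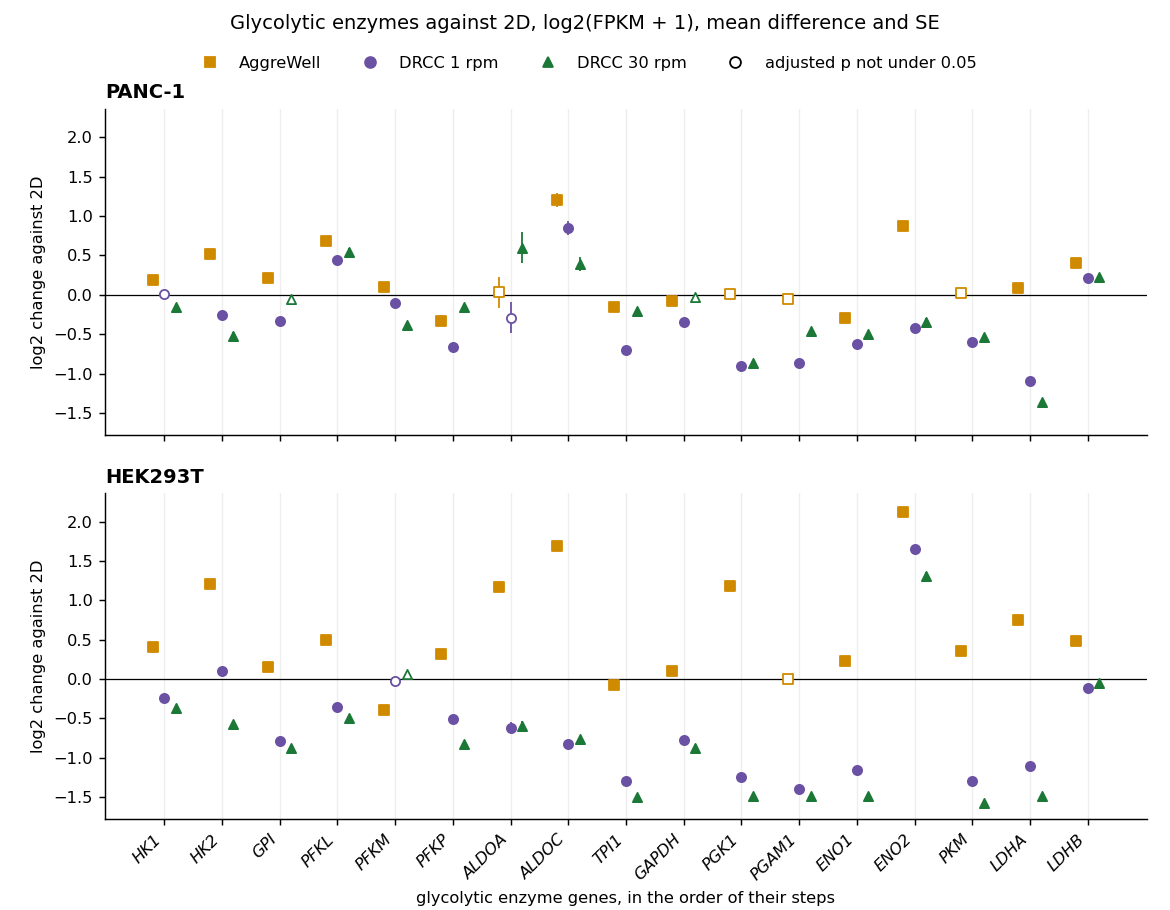
Change against 2D (vertical axes, log2(FPKM + 1), with SE) of the 17 glycolytic enzyme genes in the order of their steps, PANC-1 above and HEK293T below. Squares are AggreWell, circles DRCC at 1 rpm and triangles DRCC at 30 rpm, and open symbols mark an adjusted p that is not under 0.05. From TPI1 to LDHA the rotation symbols of HEK293T lie between -0.78 and -1.57 except for ENO2, and most AggreWell symbols lie above 0.

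The glycogen gene GBE1 rose in AggreWell and fell in rotation in both lines. GBE1, the branching enzyme of glycogen synthesis, was 5.73, 5.7 and 5.47 FPKM in 2D, 29.9, 29.3 and 29.1 in AggreWell, 3.43, 3.33 and 3.12 at 1 rpm and 1.96, 1.51 and 1.81 at 30 rpm in HEK293T, with no overlap between formats and changes of 2.20 ± 0.05, -0.63 ± 0.05 and -1.27 ± 0.05. PANC-1 GBE1 was 20.6, 22.3 and 22.6 FPKM in 2D, 29.3, 27.7 and 27.8 in AggreWell, 12.3, 12.6 and 12.2 at 1 rpm and 14.7, 13.8 and 14.3 at 30 rpm, at 0.36 ± 0.04, -0.77 ± 0.04 and -0.58 ± 0.04. GYS1, glycogen synthase, fell in rotation in HEK293T (-0.98 ± 0.04 and -0.95 ± 0.04) and in PANC-1 (-0.42 ± 0.05 and -0.34 ± 0.05). In AggreWell it rose in PANC-1 (0.58 ± 0.05) but was not called in HEK293T (0.08 ± 0.04, or -0.15 and called lower with median-ratio scaling). PGM1, phosphoglucomutase, which links glucose 6-phosphate to glycogen, rose in AggreWell (0.52 ± 0.03 in HEK293T, 0.35 ± 0.04 in PANC-1). It fell at 30 rpm in both (-0.34 ± 0.03 and -0.39 ± 0.04), and its 1 rpm value in HEK293T (0.03 ± 0.03, not called) turned to -0.26 with median-ratio scaling.

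Shares within an isoenzyme pair do not depend on how libraries are scaled, and are given here as a description. LDHB made up 23.6, 24.3 and 24.4% in 2D, 28.3, 28.4 and 28.2% in AggreWell, 43.9, 44.3 and 44.5% at 1 rpm and 48, 49.5 and 49% at 30 rpm of summed LDHA and LDHB FPKM in PANC-1. In HEK293T the LDHB shares were 37.1, 36.5 and 36.8% in 2D, 32.8, 32.4 and 32.5% in AggreWell, 54, 53.1 and 53.5% at 1 rpm and 60.9, 60.7 and 61.8% at 30 rpm. Every rotation library of both lines thus held a larger LDHB share than every 2D or AggreWell library. HK2 in HEK293T took 40.3, 39.7 and 39.5% in 2D, 54.2, 53.9 and 53.7% in AggreWell, 45.7, 47 and 44.6% at 1 rpm and 35.7, 36.4 and 36.4% at 30 rpm of the hexokinase sum, so that HK2 exceeded HK1 in AggreWell. The PANC-1 shares of HK2 were 28, 30.2 and 30.9% in 2D, 35, 35.8 and 34.9% in AggreWell, 27, 25.3 and 24.8% at 1 rpm and 24.5, 24.9 and 23.1% at 30 rpm. ENO2 stayed a small part of the enolase sum, with 0.758, 0.807 and 0.795% in 2D, 3.06, 3.2 and 3.03% in AggreWell, 6.04, 5.4 and 5.48% at 1 rpm and 5.69, 5.52 and 5.38% at 30 rpm in HEK293T and 1.05, 1.09 and 1.12% in 2D, 2.42, 2.61 and 2.45% in AggreWell, 1.14, 1.23 and 1.29% at 1 rpm and 1.18, 1.21 and 1.17% at 30 rpm in PANC-1. The highest HEK293T shares were those in rotation, where ENO1 fell and ENO2 rose. PFKFB4 in PANC-1 took 17.7, 19.9 and 20.4% in 2D, 47.6, 47.2 and 49.3% in AggreWell, 26.4, 28.4 and 27.2% at 1 rpm and 33.1, 29.3 and 32% at 30 rpm of its pair, and 18.9, 16.3 and 15.6% in 2D, 28.6, 28.2 and 29.3% in AggreWell, 14.6, 12.5 and 12.3% at 1 rpm and 11.6, 14.6 and 12.8% at 30 rpm in HEK293T. BNIP3L in HEK293T took 12.1, 13.6 and 12.3% in 2D, 18.3, 19.7 and 18% in AggreWell, 33.9, 33.5 and 31.1% at 1 rpm and 38.2, 40.1 and 36.8% at 30 rpm of its pair, against 30.7, 34.6 and 32.7% in 2D, 31.9, 31.2 and 30.2% in AggreWell, 44.9, 46.7 and 45.9% at 1 rpm and 38.7, 38 and 37.7% at 30 rpm in PANC-1, highest in rotation in both lines. P4HA2 shares were highest in 2D, with 36.9, 35.2 and 36.7% in 2D, 18.9, 19.4 and 20% in AggreWell, 23.2, 21.7 and 22.4% at 1 rpm and 21.8, 23.4 and 23.3% at 30 rpm in HEK293T and 31.7, 31.4 and 33% in 2D, 26.7, 28.1 and 26.4% in AggreWell, 25.5, 26.4 and 26.2% at 1 rpm and 26.8, 25.6 and 26.2% at 30 rpm in PANC-1. Of the 3 phosphofructokinase genes PFKP took a mean of 87.5% in PANC-1 2D and 80.7, 79.7 and 85.3% in AggreWell, at 1 rpm and at 30 rpm. In HEK293T PFKP took 32.4, 33.3, 28.4 and 24.8% in the same order and PFKM 20.8, 12.8, 25.6 and 29.9%.

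**Figure D4:**
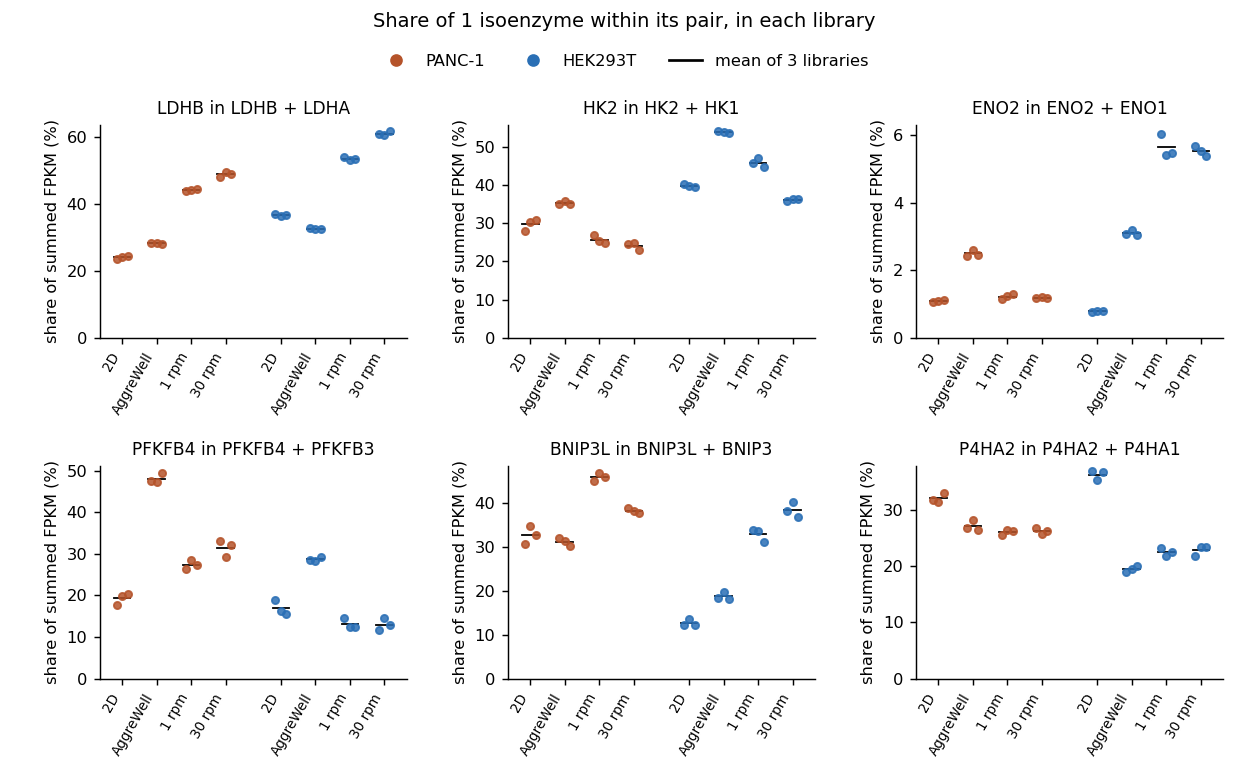
Share of 1 isoenzyme in the summed FPKM of its pair (percent, vertical axes from 0) in each of the 24 libraries, with the mean of 3 libraries as a line. LDHB rises from 23.6 to 24.4% in PANC-1 2D to 48 to 49.5% at 30 rpm, and from 36.5 to 37.1% to 60.7 to 61.8% in HEK293T.

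Between the 3D formats, rotation stood below AggreWell for most members. These comparisons share the AggreWell libraries with those above. At 1 rpm 5 members were higher and 32 lower than in AggreWell in PANC-1 (43.7% and 38.4% of all genes) and 2 higher and 36 lower in HEK293T (41.8% and 33.8%). At 30 rpm 8 were higher and 25 lower in PANC-1 (45.4% and 37.8% of all genes) and 2 higher and 38 lower in HEK293T (39.9% and 38.7%). The PANC-1 count at 30 rpm comprised 6 higher and 9 lower of 20 HIF targets, with a median of -0.03. Of the 20 glycolysis and glycogen genes 2 were higher and 16 lower there, with a median of -0.44. The exceptions in HEK293T were DDIT4 (1.45 ± 0.02 and 0.91 ± 0.02) and PFKM (0.35 ± 0.04 and 0.45 ± 0.04) at both speeds. The largest differences there were those of GBE1 (-2.83 ± 0.05 and -3.47 ± 0.05), followed at 30 rpm by LOX (-2.70 ± 0.07) and PGK1 (-2.67 ± 0.03). In PANC-1 the 30 rpm libraries exceeded AggreWell for ADM (1.07 ± 0.04), MXI1 (1.03 ± 0.05), VEGFA (0.76 ± 0.04), DDIT4 (0.74 ± 0.04), PFKFB3 (0.39 ± 0.06), BNIP3L (0.17 ± 0.03), PFKP (0.17 ± 0.02) and ALDOA (0.57 ± 0.20). LDHA was the lowest of all against AggreWell at 30 rpm (-1.45 ± 0.02).

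The faster rotation went with higher members in PANC-1 and lower members in HEK293T. Set against 1 rpm, 30 rpm had 25 higher and 9 lower of 40 in PANC-1 (36.2% and 31.9% of all genes), and 1 higher and 30 lower in HEK293T (19.6% and 32.9%). With median-ratio scaling the members stood at 23 and 9 in PANC-1 and at 5 and 24 in HEK293T. That scaling turned the balance of all genes in HEK293T, from 2464 higher and 4134 lower to 3880 higher and 2738 lower. In PANC-1 the largest differences were those of ADM (1.76 ± 0.04), NDRG1 (1.18 ± 0.03), ALDOA (0.89 ± 0.20), ANGPTL4 (0.80 ± 0.04) and SLC16A3 (0.73 ± 0.03). Lower at the faster speed were, among others, INSIG2 (-0.57 ± 0.08), ALDOC (-0.46 ± 0.09), MXI1 (-0.40 ± 0.05) and LDHA (-0.26 ± 0.02). In HEK293T the largest falls were those of ANKRD37 (-1.28 ± 0.09), LOX (-0.91 ± 0.07), HILPDA (-0.76 ± 0.03) and HK2 (-0.67 ± 0.03), and LDHB (0.07 ± 0.02) was the member called higher. NDRG1 was not called in HEK293T (-0.02 ± 0.03). Whether the lines differed in the step from 1 to 30 rpm was not tested.

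The lines already differed in flat culture, over all genes as well as in the members. HEK293T 2D was higher than PANC-1 2D for 27 of 42 members tested and lower for 12, where 56.1% of all genes were higher and 34.7% lower. The split of the members was thus not far from that of all genes. Median-ratio scaling gave 21 and 17 among the members, and 6090 and 5969 among 13392 genes. PANC-1 expressed far more SLC16A3 (a mean of 141 against 0.423 FPKM), ANGPTL4 (64.5 against 0.013 FPKM) and ADM (75.6 against 2.86 FPKM), and more PFKP (163 against 41.4 FPKM). HEK293T expressed more EGLN3 (12.1 against 0.175 FPKM), GYS1 (50.5 against 7.46 FPKM), PFKL (59.6 against 10 FPKM), ALDOC (12 against 1.53 FPKM), NDRG1 (30.2 against 5.44 FPKM) and DDIT4 (89.1 against 17.8 FPKM). PGK1, ENO1 and P4HA2 were not called different, at 0.04 ± 0.03, 0.03 ± 0.02 and -0.03 ± 0.04. In order of mean FPKM, GAPDH, ENO1 and LDHA led the members in PANC-1 2D, and GAPDH, ENO1 and TPI1 in HEK293T 2D.

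The change from 2D to a 3D format was compared between the lines as the HEK293T change minus the PANC-1 change. In AggreWell 38 of 42 members were called different, against 57.0% of all genes. In rotation the members' share was nearer that of all genes, at 36 of 42 against 75.8% for 1 rpm and 32 of 42 against 79.5% for 30 rpm. For AggreWell the difference was positive for 34 of 42 members and negative for 4, against 32.0% and 25.0% of all genes. PLOD2 (2.20 ± 0.06), GBE1 (1.84 ± 0.07), ADM (1.67 ± 0.12), LOX (1.67 ± 0.10), P4HA1 (1.56 ± 0.05) and VEGFA (1.54 ± 0.05) had the largest, and GYS1 (-0.50 ± 0.06) and PFKM (-0.48 ± 0.06) the most negative. LOX and EGLN3 were near 0 in PANC-1, and ANGPTL4 and SLC16A3 in HEK293T, where a change in log2(FPKM + 1) is small by construction. The sign for EGLN3 (0.06 ± 0.08, not called) turned to -0.95 with a pseudocount of 0.1. With that pseudocount and with voom on recovered fragments, the AggreWell calls of ANGPTL4 (0.23), PFKFB4 (0.51) and ALDOC (0.49) were lost. The same held for the positive call of ANGPTL4 at 30 rpm (0.40). For 1 rpm the split was 18 and 18, against 40.0% and 35.8% of all genes. For 30 rpm it was 5 and 27, against 37.5% and 42.0%.

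Several members went opposite ways in the lines, with both calls kept under median-ratio scaling. In AggreWell these were ADM (-0.22 in PANC-1 and 1.45 in HEK293T) and PFKP (-0.33 and 0.32). At 1 rpm they were ENO2 (-0.42 and 1.65), ANKRD37 (-0.33 and 1.46), ALDOC (0.85 and -0.83), PFKFB4 (0.63 and -0.22, with HEK293T libraries that overlapped) and PFKL (0.44 and -0.35). At 30 rpm they were ENO2 (-0.34 and 1.31), PFKFB4 (0.91 and -0.47), ALDOC (0.39 and -0.76) and PFKL (0.55 and -0.50). On the deposited scale only, PFKM, GAPDH and ENO1 in AggreWell, ADM, HK2 and LDHB at 1 rpm, and BNIP3, PFKFB3, HILPDA, ALDOA and LDHB at 30 rpm were also called in opposite directions. Under median-ratio scaling only, VEGFA, PFKFB3, PGK1, LDHA, PKM and GYS1 were called in opposite directions in AggreWell. At 1 rpm P4HA2, PLOD2 and ERO1A were, and at 30 rpm ADM, PDK1 and ERO1A. Opposite calls came to 5, 8 and 9 of the 38 members tested in both lines in AggreWell, at 1 rpm and at 30 rpm. Those of all genes came to 8.31%, 16.7% and 21.9%, so the rotation counts of members were near the shares of all genes. With median-ratio scaling opposite calls came to 8, 8 and 7 members, against 7.67%, 17.1% and 21.5% of all genes. In AggreWell 25 members were higher in both lines and 1 was lower in both, against 32.9% and 16.1% of all genes. At 1 rpm 11 were higher and 13 lower in both (37.5% and 21.0% of all genes), and at 30 rpm 10 and 13 (34.1% and 19.1%). With median-ratio scaling the counts higher and lower in both were 21 and 3, 6 and 18, and 7 and 16, against 19.2 and 33.5%, 24.3 and 33.2%, and 23.6 and 29.7% of all genes.

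**Figure D5:**
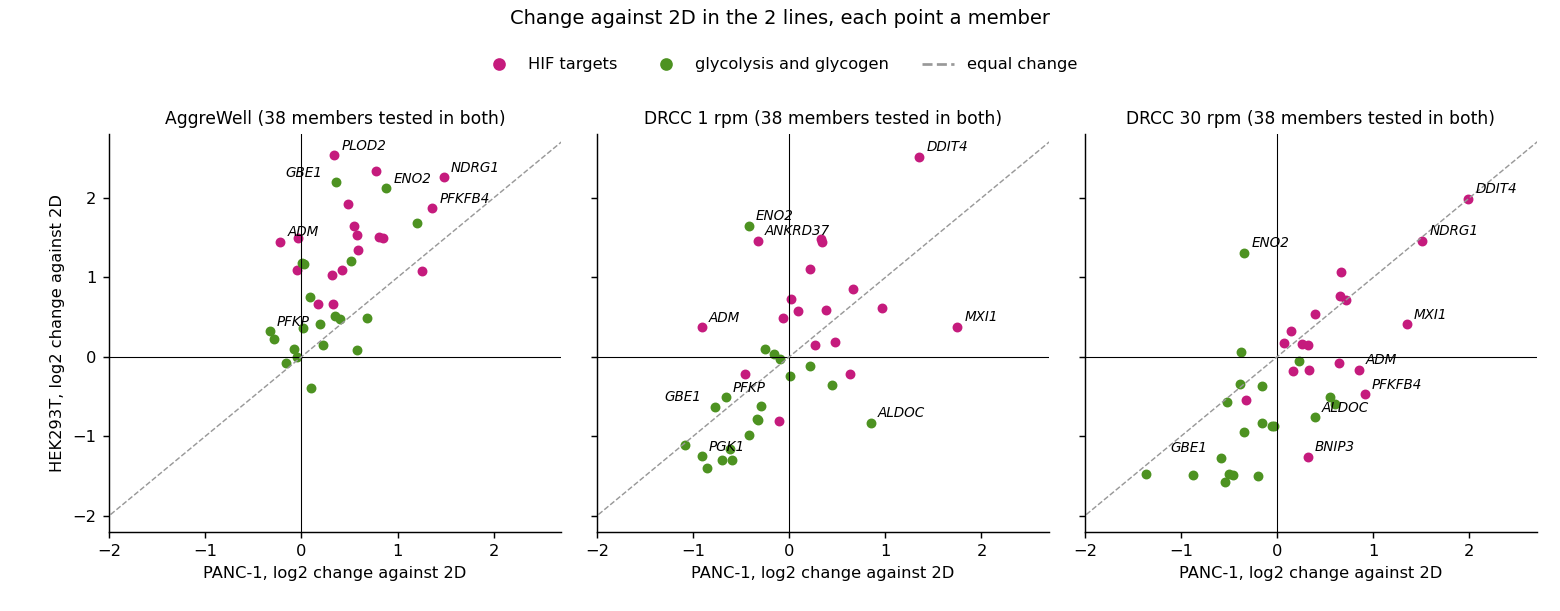
Change against 2D in PANC-1 (horizontal axes) and in HEK293T (vertical axes), both as log2(FPKM + 1) differences, for the 38 members tested in both lines, with HIF targets in pink, glycolysis and glycogen genes in green and equal change as a dashed line. In AggreWell most points lie above the dashed line, while at 30 rpm the glycolysis and glycogen genes lie mainly below 0 in HEK293T, and ENO2 lies at the upper left at both speeds.

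Other genes of the same pathways, which were listed for their known roles, give the setting. They were not recomputed with median-ratio scaling. Their counts below stand against the same shares of all genes in AggreWell, at 1 rpm and at 30 rpm: 45.9, 52.3 and 53.6% higher and 24.1, 33.9 and 32.2% lower in PANC-1, and 48.6, 53.1 and 49.6% higher and 26.8, 31.7 and 35.5% lower in HEK293T. HIF1A, which encodes the oxygen-regulated subunit, rose in every 3D format, from a mean of 6.82 FPKM in HEK293T 2D to 17.9 in AggreWell, 20.9 at 1 rpm and 26.4 at 30 rpm (1.27 ± 0.04, 1.49 ± 0.04 and 1.81 ± 0.04). In PANC-1 it went from 17.3 to 24.8, 38.3 and 29.7 FPKM (0.50 ± 0.03, 1.10 ± 0.03 and 0.75 ± 0.03). EPAS1, which encodes HIF2 alpha, fell in PANC-1 from 45.4 to 38.9, 26.9 and 24.9 FPKM (-0.22 ± 0.03, -0.74 ± 0.03 and -0.84 ± 0.03). Among 13 HIF subunits and regulators, 10 were tested in PANC-1, with 4 higher and 4 lower in AggreWell, 4 and 6 at 1 rpm and 3 and 6 at 30 rpm. In HEK293T 11 were tested, with 5 and 5, 6 and 4, and 6 and 3. CITED2, which competes with HIF for the coactivator p300, rose in AggreWell in both lines (1.18 ± 0.04 in HEK293T, 0.71 ± 0.03 in PANC-1). RBX1, the RING subunit of the VHL ligase, fell in HEK293T at 30 rpm from 55.8 to 26.7 FPKM (-1.04 ± 0.05).

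A list of 18 further HIF targets was also mostly higher in AggreWell. In HEK293T 15 of 16 tested were higher and 0 lower there (median change 1.11), and in PANC-1 13 of 15 were higher and 1 lower (0.68). BHLHE40, a repressor linked to the circadian clock (1.99 ± 0.04), and KDM3A, a histone demethylase (1.82 ± 0.05), had the largest rises in HEK293T. In rotation the split was 8 higher and 7 lower (0.39) at 1 rpm and 9 and 3 (0.37) at 30 rpm in PANC-1, and 6 and 6 (-0.04) and 6 and 7 (-0.06) in HEK293T. The PANC-1 share of 8 of 15 higher at 1 rpm was near the 52.3% of all genes, and the HEK293T shares higher in rotation were below those of all genes. BHLHE40 again led in PANC-1 rotation (1.90 ± 0.03 and 2.38 ± 0.03). TMEM45A fell in HEK293T at 30 rpm from 6.98 to 1.88 FPKM (-1.47 ± 0.07).

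The genes that decide what becomes of pyruvate were mixed. Of 12 tested in PANC-1, 6 were higher and 4 lower in AggreWell, 6 and 4 at 1 rpm and 7 and 4 at 30 rpm. HEK293T had 4 and 6, 4 and 8, and 4 and 8. The phosphatase gene PDP1, which switches pyruvate dehydrogenase on, rose in HEK293T rotation from a mean of 6.25 to 18.7 and 22 FPKM (1.44 ± 0.07 and 1.67 ± 0.07), and its isoenzyme PDP2 rose in PANC-1 at 1 rpm (1.37 ± 0.06). DLAT and PDHB, subunits of that complex, fell in HEK293T (-0.93 ± 0.04 for DLAT at 30 rpm, -0.83 ± 0.03 for PDHB at 1 rpm). In the pentose phosphate pathway 3, 3 and 5 of 7 genes were higher and 4, 4 and 2 lower in PANC-1 in AggreWell, at 1 rpm and at 30 rpm. In HEK293T 1 was higher in each format and 5, 6 and 5 lower. TKT, transketolase, rose in PANC-1 at 30 rpm (0.75 ± 0.03). TALDO1, transaldolase, fell in HEK293T at 1 rpm from 262 to 114 FPKM (-1.19 ± 0.03), and PGD, an enzyme of the pathway that makes NADPH, fell there at 30 rpm (-0.79 ± 0.03). Of 10 gluconeogenesis and side genes, 5 were tested in PANC-1, with 4, 3 and 3 higher and 0, 1 and 1 lower, and 6 in HEK293T, with 4, 4 and 3 higher and 1, 2 and 2 lower. PCK2, mitochondrial phosphoenolpyruvate carboxykinase, rose in rotation in both lines, from 3.48 to 10.1 and 13.4 FPKM in PANC-1 and from 18.5 to 45.6 and 49.7 FPKM in HEK293T (1.31 ± 0.05, 1.69 ± 0.05, 1.26 ± 0.04 and 1.38 ± 0.04). PFKFB2, another PFK-2 isoenzyme, rose in PANC-1 at 1 rpm (1.20 ± 0.04). PC, pyruvate carboxylase, fell in HEK293T at 30 rpm (-0.89 ± 0.06), and TIGAR, a fructose bisphosphatase, in PANC-1 at 1 rpm (-0.48 ± 0.05).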

How the data were processed

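RNA was extracted with TRIzol and libraries were made with a VAHTS kit, per the labels' protocols. The submitters' processing notes name fastp, HISAT2, HTSeq, R 3.2.0 and the build mm10, a mouse build, though the table holds human gene symbols. Roles, strand and RNA selection are not given in the sources used here. FPKM values, as the authors deposited them, cover 26450 genes in 24 libraries in 1 table. Values of 26449 genes were whole multiples of 1 fragment within 0.01, which gave the depth per library, 32021638 to 39556154 fragments.

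Values were analysed as log2(FPKM + 1) with limma 3.58.1 in R 4.3.3 (Python 3.11.15 elsewhere), with a mean-variance trend and Benjamini-Hochberg adjustment over all genes tested. A gene was tested where 3 or more libraries reached 1 FPKM: 11585 in PANC-1, 12548 in HEK293T and 13392 in the fit of both lines. The 12 libraries of a line shared 1 fit, and differences between lines came from a fit of all 24. Members tested numbered 40, 40 and 42. The fits were tested on simulated data. Per-library values are printed for members with the largest change per role and line, those called in opposite directions in the lines, and isoenzyme pairs. Of other lists, the 2 genes with the largest called change in each direction are named, except for genes that are not reported here. Members and lists were chosen with earlier results of these data known. Member results were recomputed with median-ratio scaling, a pseudocount of 0.1, every gene kept, and only genes averaging 5 FPKM or more. They were also recomputed with voom on the recovered fragments, a replicate block, a fit on the 2 formats compared, and leaving out each library. The lists of other pathway genes were not recomputed.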

Additional observations from a re-analysis of the deposited data

Results flagged for a closer look

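Changes against 2D that differed between the lines were looked at again, by limma's test of the HEK293T change minus the PANC-1 change (log2(FPKM + 1), adjusted over all genes). In AggreWell the difference was positive for 34 of 42 members and negative for 4, against 32.0% and 25.0% of all genes. At 1 rpm the counts were 18 and 18 (40.0% and 35.8% of all genes), and at 30 rpm 5 and 27 (37.5% and 42.0%).

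Members called in opposite directions in the lines under both scalings are given with their differences as a description, since that choice fixes a difference between the lines. For AggreWell, ADM differed by 1.67 ± 0.12 and PFKP by 0.66 ± 0.04. For 1 rpm, ENO2 differed by 2.07 ± 0.07 and ANKRD37 by 1.79 ± 0.14, with HEK293T above PANC-1. On the other side lay ALDOC at -1.68 ± 0.11, PFKFB4 at -0.85 ± 0.1 and PFKL at -0.79 ± 0.05. For 30 rpm, ENO2 stood at 1.65 ± 0.07, PFKFB4 at -1.37 ± 0.1, ALDOC at -1.15 ± 0.11 and PFKL at -1.06 ± 0.05. The share of mitochondrially encoded fragments fell in PANC-1 rotation, from at least 4.1% in 2D to at most 2.45%, and its part in these differences was not tested.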

How the results depend on the processing

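Under the alternatives 689 counts of members were within 1.5 times the reported count and 7 were not. Median-ratio scaling moved 5: members lower in PANC-1 AggreWell became 13, higher in PANC-1 at 30 rpm 13, lower in HEK293T AggreWell 6, higher in HEK293T at 30 against 1 rpm 5, and the positive line differences at 30 rpm 8. The HEK293T count at 30 against 1 rpm, 1 as reported, was 2 with voom and 1 to 2 when libraries were left out in turn, with 2 without 1 rpm replicate 1. Over all genes, median-ratio scaling moved the share of calls that were higher from 65.6 to 40.4% (AggreWell), 60.7 to 47.0% (1 rpm) and 62.5 to 47.8% (30 rpm) in PANC-1. In HEK293T the shifts were 64.5 to 42.2%, 62.6 to 45.6% and 58.3 to 46.8%, and for 30 against 1 rpm 37.3 to 58.6%. For HEK293T 2D against PANC-1 2D it was 61.8 to 50.5%.

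Median-ratio scaling turned the sign of 28 member changes that were called under either scaling, while 312 kept their call and, where called, their direction. In PANC-1 AggreWell these became ERO1A -0.02, PFKM -0.08, PGK1 -0.18, PKM -0.17 and LDHA -0.10. In PANC-1 at 1 rpm they were PLOD2 -0.14, VEGFA -0.00, ERO1A -0.20, HK1 -0.22 and LDHB -0.01, and at 30 rpm SLC16A3 -0.24, ERO1A -0.10, HILPDA -0.04 and LDHB -0.02. In HEK293T AggreWell they were GPI -0.07, GAPDH -0.13, PGAM1 -0.23, ENO1 -0.00 and GYS1 -0.15. In HEK293T at 1 rpm they were PDK1 -0.04, LOX -0.06, PFKFB3 -0.14, HK2 -0.19 and PGM1 -0.26, and at 30 rpm P4HA2 -0.03, PLOD2 -0.05 and PFKM -0.15. The line difference of SLC16A3 at 30 rpm became 0.13. EGLN3, near 0 in PANC-1, had line differences of -0.95 (AggreWell) and 0.11 (30 rpm) with a pseudocount of 0.1, and of -1.42, 0.44 (1 rpm) and 1.70 with voom. The cause was not tested.

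Same-numbered libraries were not taken as pairs, since not every pair correlated at over 0.1: their deviations from the group means correlated at -0.09 to 0.11 in PANC-1 and -0.10 to 0.43 in HEK293T, and 1 of 12 and 8 of 12 libraries correlated best with their own number. With the number as a replicate block, 26 members were higher in PANC-1 AggreWell in place of 27, 31 lower in HEK293T at 30 against 1 rpm in place of 30, and 361 member changes kept their direction and call, with 2 calls lost and 3 gained. FPKM near 0 limits EGLN3, LOX and CA9 in PANC-1 and ANGPTL4, CA9 and SLC16A3 in HEK293T. With 3 libraries a group, small standard errors describe these libraries only.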
